A study of Mus musculus with 22 samples.

Results

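The bone morphogenetic protein (BMP) pathway was followed through 10 genes of mouse embryonic stem (ES) cells: the ligands Bmp4 and Bmp7, the receptors Bmpr1a and Bmpr2, the signal transducer Smad1, the inhibitor Smad6 and the target genes Id1, Id2, Id3 and Id4. The 10 genes were chosen by function with earlier results of these data known. They are 10 of 18193 genes measured, and each is represented by the probe set that was selected on the highest mean level over all 22 arrays among the probe sets that carry its symbol alone. Their levels and differences between culture conditions are therefore given as descriptions, without p-values, and counts of calls among them are given only beside those of all genes.

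The arrays fall into 3 arms of Rex1GFPd2 ES cells, a line whose name records a destabilised GFP reporter of the pluripotency gene Rex1 (Zfp42), and all cells had been transfected with siRNA. The first arm (8 arrays) received siYAP/TAZ#1 or siYAP/TAZ#2, 4 arrays each, which target the Hippo pathway coactivators YAP and TAZ, and was grown with the MEK inhibitor PD0325901 alone. The second arm (7 arrays) received siControl#1 (4 arrays) or siControl#2 (3 arrays) and was also grown in PD-only medium. The third arm (7 arrays, 4 and 3) received the same control siRNAs and stayed in 2i medium, which holds PD0325901 together with the GSK3 inhibitor CHIR99021. PD-only cultures were moved to that medium 24 hours after transfection, and all cultures were harvested at 72 hours. All 3 arms thus share the MEK inhibitor and a transfected siRNA, no arm combined YAP/TAZ siRNA with 2i, and the labels call the arrays biological replicates of 1 cell line.

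BMP ligands bind a complex of type I and type II receptor kinases, and the type I receptor then phosphorylates Smad1, Smad5 and Smad9, which enter the nucleus with Smad4. Id genes are among the best known direct targets of these Smads. Id proteins have a helix-loop-helix domain without a DNA-binding region and hold E proteins in inactive pairs. In mouse ES cells kept in serum-free medium with the cytokine LIF, BMP-induced Id expression is known to sustain self-renewal.

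Values are log2 expression made by RMA (robust multi-array average), so a difference of 1 is a doubling. The deposited values run from 2.09 to 14.91, and the median gene had a mean of 6.64. Of the 10 genes, 9 lay above that median and Smad6 lay below it. RMA gives no zero and no detection call, and levels of different probe sets were not set against each other. Within an arm, any pair of arrays correlated at 0.9977 or more over genes. The siRNA targets were lower in the siYAP/TAZ arm, with Yap1 at 9.76 ± 0.075 there against 11.04 ± 0.030 in PD-only controls, and Wwtr1, which encodes TAZ, at 9.25 ± 0.076 against 10.28 ± 0.029 (SD, n = 8 and 7). Their differences were −1.27 ± 0.031 (SE; limma adjusted p = 2.61e-18) and −1.04 ± 0.031 (adjusted p = 5.32e-17). The ES cell markers Pou5f1, Sox2, Nanog and Zfp42 all had arm means of 12.59 or more, with at least 98.9% of genes below them. The median over all genes was not the same in every arm. It differed by −0.14 between siYAP/TAZ and PD-only controls, by 0.12 between PD-only and 2i controls and by −0.017 between siYAP/TAZ and 2i controls, and centring each array on its median takes these amounts off every difference. The median of the differences of single genes had the opposite sign each time, at 0.061, −0.044 and 0.015 in these comparisons. Over all probe sets, the typical array median was 5.52 in siYAP/TAZ cells, 5.55 in PD-only controls and 5.52 in 2i controls. Centring is thus given as an alternative scaling and not as a correction. Differences of about the size of the shift of the array median are named as such where they occur.

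The 250 bases upstream of the gene start are shown for Id2 and Id3, which were high in the PD-only controls, and for Id4, which was low in them. Sequences are those of RefSeq on GRCm38.p6, printed 5′ to 3′ on the strand of the gene, and 8 of the 10 genes had an entry, Id1 and Bmp7 being the others. Capitals mark 4 motifs searched on both strands: GGCGCC, a GC-rich Smad element, CAGAC, a Smad4 element, CATTCC, a TEAD element, and CTTTGA, a TCF/LEF element. None of the marked matches overlap.
Id2, chr12:25096093-25096342, minus strand: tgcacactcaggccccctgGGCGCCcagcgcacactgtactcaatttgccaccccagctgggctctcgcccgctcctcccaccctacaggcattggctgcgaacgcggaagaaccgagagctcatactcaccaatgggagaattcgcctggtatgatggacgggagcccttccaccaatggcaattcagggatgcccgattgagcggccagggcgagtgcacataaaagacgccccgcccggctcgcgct
Id3, chr4:136143572-136143821, plus strand: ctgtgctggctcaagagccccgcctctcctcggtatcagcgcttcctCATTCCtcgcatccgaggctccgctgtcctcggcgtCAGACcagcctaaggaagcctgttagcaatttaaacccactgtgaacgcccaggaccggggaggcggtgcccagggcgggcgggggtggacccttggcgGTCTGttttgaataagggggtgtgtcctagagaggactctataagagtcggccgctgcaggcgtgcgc
Id4, chr13:48260866-48261115, plus strand: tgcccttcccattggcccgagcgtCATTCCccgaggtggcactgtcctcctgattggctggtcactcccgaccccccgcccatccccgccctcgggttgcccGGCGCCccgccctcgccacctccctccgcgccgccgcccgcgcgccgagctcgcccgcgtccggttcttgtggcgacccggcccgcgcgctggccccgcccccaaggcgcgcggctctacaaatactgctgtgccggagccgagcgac
The Id2 window held GGCGCC at −231 to −226, counted back from the base before the gene start as −1. The Id3 window held CATTCC at −203 to −198, CAGAC at −167 to −163 and its reverse complement GTCTG at −68 to −64. The Id4 window held CATTCC at −226 to −221 and GGCGCC at −148 to −143. Id2 and Id4, whose levels ran in opposite directions, thus shared GGCGCC, and Id3 and Id4 shared CATTCC. Among the 8 promoters, GGCGCC occurred in 4 (Id2, Id4, Bmpr1a and Bmpr2), against 9.54% of 27025 promoters of the same length. The 8 windows were 62.8% to 78.8% G and C, and the 27025 were not matched for this, so the shares are not a test of enrichment. The Bmpr1a window lies inside the annotated span of the gene, and that of Smad6 overlaps its span. CATTCC occurred in 2 of the 8 against 12.6%, CAGAC in 1 against 42.1%, and CTTTGA in 0 against 14.0%. A match describes letters in this window and is not a measured binding site.

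Id1, Id2 and Id3 stood in the same order across the arms: highest in the PD-only controls, intermediate after YAP/TAZ siRNA and lowest in 2i controls. Id4 ran the other way. Smad6 had the order of the first 3 Id genes, whereas Bmp4 and Bmpr2 were high in the PD-only controls and close together in the other arms. Where 3 differences are listed together, they are siYAP/TAZ minus PD-only controls, PD-only controls minus 2i controls, and siYAP/TAZ minus 2i controls, in this order. A difference or a count of higher and lower genes between named arms likewise describes the first-named arm relative to the second.

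Id1 had a lowest, median and highest value of 8.48, 8.57 and 8.66 in siYAP/TAZ cells, against 10.37, 10.41 and 10.48 in PD-only controls and 5.26, 5.57 and 5.87 in 2i controls. No array of one arm reached the range of another. Id1 was lower by 1.86 ± 0.060 (SE, n = 8 and 7) in siYAP/TAZ cells than in PD-only controls, a 3.62-fold difference, and higher by 3.0 ± 0.060 in siYAP/TAZ cells than in 2i controls. Between the media the difference was 4.86 ± 0.063 in favour of PD-only, or 29.0-fold, the largest among the 10 genes. The gene has 1 probe set with its symbol alone.

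Id2 had values of 7.56, 7.74 and 7.95 in siYAP/TAZ cells, against 9.78, 9.84 and 9.96 in PD-only controls and 5.25, 5.46 and 5.86 in 2i controls. The 3 ranges were again separate. The difference was −2.10 ± 0.074 for siYAP/TAZ against PD-only controls (4.3-fold), 4.32 ± 0.076 for PD-only against 2i controls (20-fold) and 2.22 ± 0.074 for siYAP/TAZ against 2i controls (4.66-fold). Both further Id2 probe sets had the same signs. One gave −2.04, 3.54 and 1.51 in these comparisons, and the dim one gave −0.80, 1.07 and 0.27. Averaging the 3 probe sets moved the difference between media to 2.98 and that between siYAP/TAZ and 2i to 1.33.

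Id3 had values of 7.58, 7.67 and 7.74 in siYAP/TAZ cells, against 9.80, 9.87 and 9.90 in PD-only controls and 6.25, 6.48 and 6.64 in 2i controls. It was the Id gene with the widest gap between siYAP/TAZ and PD-only controls, at −2.20 ± 0.047 (4.61-fold). Its difference between PD-only and 2i controls, 3.43 ± 0.048 (10.8-fold), was smaller than those of Id1 and Id2. The siYAP/TAZ cells stayed 1.23 ± 0.047 above 2i controls (2.34-fold), with no overlap.

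Id4, the family member best known from neural development, had values of 10.91, 10.96 and 11.05 in siYAP/TAZ cells, against 9.23, 9.31 and 9.34 in PD-only controls and 11.29, 11.40 and 11.45 in 2i controls. It was higher by 1.67 ± 0.029 in siYAP/TAZ cells than in PD-only controls (3.19-fold) and differed by −2.09 ± 0.030 between PD-only and 2i controls (4.27-fold). In siYAP/TAZ cells it lay −0.42 ± 0.029 from the 2i controls (1.34-fold), and these ranges were separate too. All 3 Id4 probe sets had the same signs, with 1.43 to 1.67, −2.09 to −1.67 and −0.46 to −0.24 in the same order of comparisons.

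**Figure D1:**
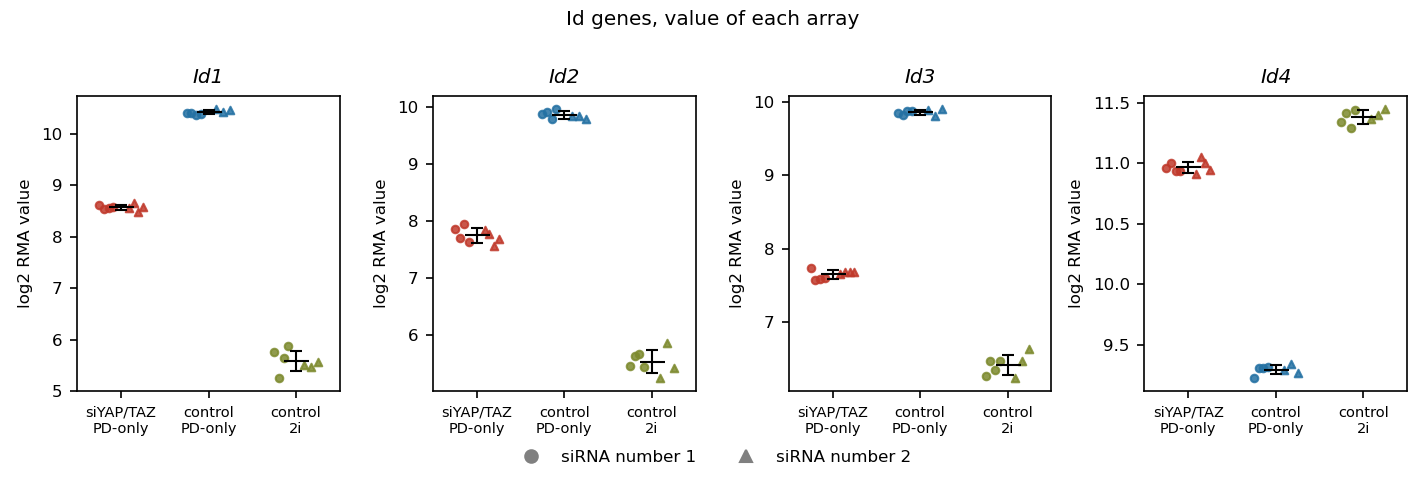
Log2 RMA values of Id1, Id2, Id3 and Id4 on each array, with siYAP/TAZ PD-only, control PD-only and control 2i from left to right. Each point is 1 array, circles for siRNAs numbered 1 and triangles for those numbered 2, and bars give the arm mean and SD; Id1 lies between 10.37 and 10.48 in PD-only controls, above both other arms, whereas Id4 lies lowest there at 9.23 to 9.34.

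Among the ligands, Bmp4 had values of 9.06, 9.15 and 9.30 in siYAP/TAZ cells, against 10.43, 10.51 and 10.56 in PD-only controls and 9.12, 9.20 and 9.30 in 2i controls. The siYAP/TAZ and 2i ranges overlapped and both lay below the PD-only controls. Differences were −1.34 ± 0.037 for siYAP/TAZ against PD-only controls, 1.32 ± 0.038 for PD-only against 2i controls and −0.024 ± 0.037 for siYAP/TAZ against 2i controls. Bmp4 thus differed from the Id genes in that its siYAP/TAZ level lay within 1 SE of the 2i level.

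Bmp7, a second BMP ligand, had values of 6.70, 6.88 and 7.07 in siYAP/TAZ cells, against 6.79, 6.89 and 6.93 in PD-only controls and 6.59, 6.68 and 6.84 in 2i controls. Its arms overlapped in all 3 comparisons. Differences were 0.019 ± 0.045, 0.17 ± 0.047 and 0.19 ± 0.045. That between the media was 0.053 with arrays centred and 0.29 with an RNA quality covariate, the 3′ minus 5′ value of the Actb control probes. Its 2 other probe sets, both dimmer, gave 0.17, 0.42 and 0.60, and 0.11, 0.16 and 0.27, so the size of the difference from 2i depended on the probe set.

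Bmpr1a, a type I receptor kinase, had values of 9.61, 9.71 and 9.77 in siYAP/TAZ cells, against 10.06, 10.10 and 10.15 in PD-only controls and 9.92, 9.98 and 10.07 in 2i controls. By this probe set the siYAP/TAZ arm lay below both others, by 0.39 ± 0.028 and 0.28 ± 0.028. The other 5 probe sets of the gene disagreed. They gave 0.006 to 0.11 for siYAP/TAZ against PD-only controls and −0.08 to 0.34 for siYAP/TAZ against 2i controls. The difference between PD-only and 2i controls, 0.12 ± 0.029, was of the size of the array shift and became −0.005 after centring. The other bright probe sets, 3 in number, gave 0.27, 0.30 and 0.22 in that comparison, above the shift, and the 2 dim ones gave −0.089 and 0.015. The probe sets thus give Bmpr1a no single direction with YAP/TAZ siRNA.

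Bmpr2, the type II receptor that BMP ligands recruit, had values of 8.57, 8.65 and 8.77 in siYAP/TAZ cells, against 9.5, 9.54 and 9.57 in PD-only controls and 8.71, 8.78 and 8.85 in 2i controls. By this probe set it was highest in PD-only controls, as Bmp4 was, but its siYAP/TAZ level lay more than 1 SE below the 2i level. The differences were −0.88 ± 0.026, 0.75 ± 0.027 and −0.12 ± 0.026, and the ranges of siYAP/TAZ and 2i overlapped. A second probe set gave −0.39, 0.18 and −0.21, and another, dim one gave 0.24, −0.096 and 0.14.

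Smad1, which carries the signal of the receptors into the nucleus, had values of 8.94, 9.04 and 9.20 in siYAP/TAZ cells, against 9.34, 9.40 and 9.43 in PD-only controls and 9.29, 9.37 and 9.51 in 2i controls. The siYAP/TAZ arrays lay below both control arms, with differences of −0.35 ± 0.033 and −0.33 ± 0.033. The control arms overlapped, and their difference of 0.013 ± 0.034 became −0.11 with arrays centred. Both further probe sets gave −0.39 and −0.28 for siYAP/TAZ against PD-only controls. Between PD-only and 2i controls they gave −0.12 and −0.16, so the lack of a difference between the media depended on the probe set.

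Smad6, an inhibitory Smad that is itself induced by BMP signals, had values of 6.36, 6.51 and 6.63 in siYAP/TAZ cells, against 6.99, 7.03 and 7.14 in PD-only controls and 5.65, 5.86 and 6.14 in 2i controls. As for Id1 to Id3, the arms were separate and siYAP/TAZ lay in the middle. Differences were −0.54 ± 0.061, 1.17 ± 0.063 and 0.63 ± 0.061. Its probe set is the one with an overall mean below the median level, and background compresses differences of dim probe sets by an unknown amount. Id1, Id2 and Id3 were dim in 2i controls, so the sizes of their differences from 2i are uncertain in the same way.

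**Figure D2:**
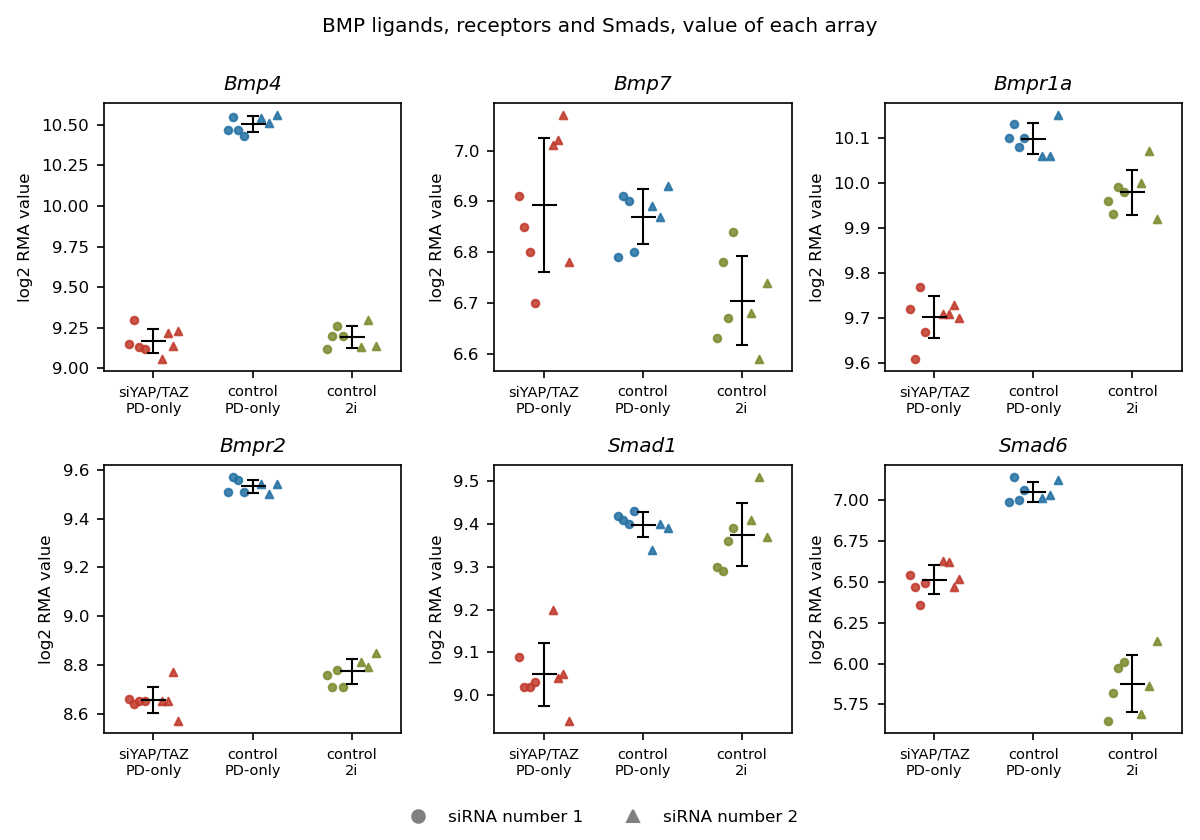
Log2 RMA values of Bmp4, Bmp7, Bmpr1a, Bmpr2, Smad1 and Smad6 on each array, with siYAP/TAZ PD-only, control PD-only and control 2i from left to right. Each point is 1 array, circles for siRNAs numbered 1 and triangles for those numbered 2, and bars give the arm mean and SD; Bmp4 and Bmpr2 lie highest in PD-only controls, at 10.43 to 10.56 and 9.5 to 9.57, and Bmp7 overlaps in all arms.

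Read as counts at an adjusted p of 0.05, 9 of the 10 genes differed between siYAP/TAZ and PD-only controls, 1 higher and 8 lower, while 61.8% of all 18193 genes did, 35.5% higher and 26.3% lower. The exception was Bmp7. Between PD-only and 2i controls the count was 9 of 10, 8 higher and 1 lower, against 58.0% of all genes, 26.7% higher and 31.3% lower, and the exception was Smad1. Between siYAP/TAZ and 2i controls it was 9 of 10, 5 higher and 4 lower, against 48.3% of all genes, 25.5% higher and 22.8% lower, and the exception was Bmp4. The genes were chosen with these comparisons in view, so the counts carry no support of their own. They include Bmpr1a in each comparison, although its probe sets disagreed. Over the mean of all probe sets of a gene the counts were 8, 10 and 8 of 10, with 11306, 10551 and 8560 of all 18193 genes called. The median difference of the 10 genes was −0.71, 0.96 and 0.08 in these comparisons, beside 0.061, −0.044 and 0.015 over all genes.

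Arrays of the 2 arms did not overlap for 9 of the 10 genes between siYAP/TAZ and PD-only controls, for 7 between PD-only and 2i controls and for 7 between siYAP/TAZ and 2i controls. Over all genes that share was 40.4%, 37.6% and 28.3%. The comparisons share arms pairwise, so their values are given side by side and no relation between them was computed.

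**Figure D3:**
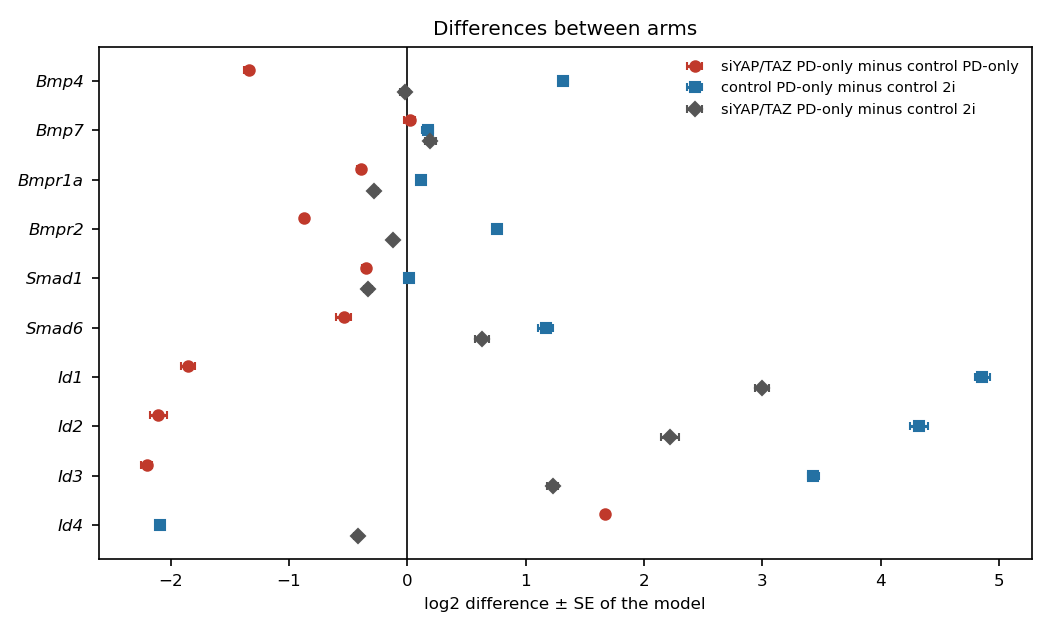
Log2 differences (x axis) of the 10 genes (y axis) in 3 comparisons: siYAP/TAZ PD-only minus control PD-only, control PD-only minus control 2i, and siYAP/TAZ PD-only minus control 2i. Bars are standard errors of the model; Id1 has −1.86, 4.86 and 3.0, Id4 has the opposite signs, and Bmp4 has −1.34, 1.32 and −0.024.

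The siRNAs of one kind were compared with each other, which the choice of the genes did not use. Between siYAP/TAZ#2 and siYAP/TAZ#1 the widest difference was that of Bmp7, 0.16 (limma, unadjusted p = 0.0214, adjusted p = 1.0), and Id1, Id2, Id3 and Id4 differed by 0.07 or less in size. None of the 10 genes was called, as 0 of 18193 genes (0%) were, with 649 at an unadjusted p of 0.05. Between siControl#2 and siControl#1, the widest difference among the 10 was 0.065 in PD-only medium and 0.12 in 2i, both for Id1. Again 0 genes of 18193 (0%) were called in each, with 769 and 1450 at an unadjusted p of 0.05. The medium difference itself was set against control siRNA: for Id1 it was 0.19 ± 0.13 larger with siControl#2 than with siControl#1 (adjusted p = 0.988), and 0 genes of 18193 (0%) were called, with 949 at an unadjusted p of 0.05. A limma fit with a trended and robust prior also called 0 of the 10 in each of these contrasts. The differences between siRNAs of one kind were thus small beside those of Id1 to Id4, Bmp4 and Bmpr2 between the PD-only controls and either other arm.

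Beyond the 10 genes, 55 others of the pathway were measured, in lists of ligands, receptors, Smads and intracellular inhibitors, secreted antagonists, targets and E proteins. Between siYAP/TAZ and PD-only controls, 39 of 55 changed (70.9%, beside 61.8% of all genes), 12 higher and 27 lower (median −0.12). Between PD-only and 2i controls 35 changed (63.6%, beside 58.0% of all genes), 24 of them higher and 11 lower (median 0.091), and between siYAP/TAZ and 2i controls 21 changed (38.2%, beside 48.3% of all genes), 9 higher and 12 lower (median 0.016). The shares in the first 2 comparisons were near those of all genes and the last was below it, and the counts of single lists stand against the same shares. The splits moved with the scaling: with arrays centred on their medians they were 20 higher and 18 lower, 18 higher and 23 lower, and 11 higher and 12 lower. The adjusted p-values in this part are limma's, adjusted over all 18193 genes. The lists, like the 10 genes, were chosen with earlier results of these data known. The genes named below were picked as the called ones with the largest differences in their list. Their p-values thus describe these arrays and are no independent support.

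Of 9 further ligands, 1 rose and 2 fell with YAP/TAZ siRNA in PD-only medium, and 4 were higher in PD-only than in 2i controls. Bmp2, which shares receptors with Bmp4, had values of 3.72, 3.90 and 4.06 in siYAP/TAZ cells, against 7.53, 7.71 and 7.96 in PD-only controls and 3.49, 3.62 and 3.67 in 2i controls. Its ranges in the siYAP/TAZ and 2i arms lie near the low end of the scale. Bmp2 fell by 3.84 ± 0.067 with YAP/TAZ siRNA (adjusted p = 1.03e-20) and was 4.12 ± 0.070 higher in PD-only than in 2i controls (adjusted p = 6.91e-21). Its 0.28 ± 0.067 between siYAP/TAZ and 2i (adjusted p = 0.00142) became 0.19 (adjusted p = 0.169) with siRNAs numbered 2 alone. Bmp8b also fell by 1.40 ± 0.076 (adjusted p = 1.36e-12), and was 1.43 ± 0.079 higher in PD-only than in 2i controls (adjusted p = 2.12e-12). Bmp8a was higher than in 2i controls in PD-only controls, by 0.54 (adjusted p = 2.72e-06), and in siYAP/TAZ cells, by 0.46 (adjusted p = 1.41e-05). Gdf2 gave 0.25 between siYAP/TAZ and PD-only controls (adjusted p = 0.00227), but 0.11 (adjusted p = 0.521) with an RNA quality covariate and 0.22 (adjusted p = 0.155) with siRNAs numbered 2 alone. Bmp6 gave 0.20 between PD-only and 2i controls (adjusted p = 0.0116), but 0.082 (adjusted p = 0.259) with arrays centred and 0.068 (adjusted p = 0.523) with siRNAs numbered 1 alone. With the RNA quality covariate its difference was 0.17, of similar size, and did not pass (adjusted p = 0.306).

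Of 9 further receptors and co-receptors, 3 rose and 5 fell with YAP/TAZ siRNA in PD-only medium. In PD-only controls, 3 were higher and 4 lower than in 2i controls. Bmpr1b, the other BMP type I receptor kinase, had values of 6.28, 6.40 and 6.51 in siYAP/TAZ cells, against 4.31, 4.83 and 5.28 in PD-only controls and 6.42, 6.51 and 6.63 in 2i controls. Its SD was 0.35 in PD-only controls, against 0.074 in siYAP/TAZ cells and 0.078 in 2i controls. The PD-only control mean was 4.84 over arrays and 4.88 with siRNA groups weighted equally, so its control siRNAs differed there. The model's SE leaves that difference out. It rose by 1.51 ± 0.067 in siYAP/TAZ cells (adjusted p = 4.31e-14) and differed by −1.63 ± 0.069 between PD-only and 2i controls (adjusted p = 2.63e-14), the opposite of Bmpr2 in both. Acvr1, a further type I receptor, also rose, by 0.28 (adjusted p = 8.98e-07), and differed by −0.34 between the media (adjusted p = 9.99e-08). The type II receptor Acvr2a was lower in siYAP/TAZ cells than in either control arm, by −0.33 (adjusted p = 2.35e-08) and −0.37 (adjusted p = 8.21e-09). Acvr2b was 0.27 higher in PD-only than in 2i controls (adjusted p = 8.71e-06) but gave 0.092 (adjusted p = 0.229) with the RNA quality covariate. Of the co-receptors, Tgfbr3 gave −0.34 between siYAP/TAZ and 2i (adjusted p = 2.98e-07) and Eng −0.25 between PD-only and 2i controls (adjusted p = 1.3e-06). Eng between siYAP/TAZ and 2i gave −0.13 (adjusted p = 0.00271), and −0.079 (adjusted p = 0.0521) over the mean of its probe sets. Rgma, −0.27 with YAP/TAZ siRNA (adjusted p = 0.00255), turned to 0.079 (adjusted p = 0.583) with the RNA quality covariate.

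Among 9 further Smads and intracellular inhibitors, 1 rose and 6 fell with YAP/TAZ siRNA in PD-only medium. Relative to 2i controls, 5 were higher and 1 lower in PD-only controls, and 2 were higher and 5 lower in siYAP/TAZ cells. Smad7, the second inhibitory Smad, ran opposite to Smad6, at 9.92, 9.995 and 10.06 in siYAP/TAZ cells, against 9.57, 9.66 and 9.74 in PD-only controls and 10.43, 10.51 and 10.58 in 2i controls. Its differences were 0.34 ± 0.032 (adjusted p = 9.33e-09), −0.86 ± 0.033 (adjusted p = 4.72e-15) and −0.52 ± 0.032 (adjusted p = 2.1e-11). The transducer Smad5 fell by 0.41 in siYAP/TAZ cells relative to PD-only controls (adjusted p = 6.79e-09), and its −0.28 relative to 2i controls (adjusted p = 2.4e-06) became −0.054 (adjusted p = 0.354) over the mean of its probe sets. The pseudoreceptor gene Bambi and the corepressor gene Ski fell by 0.45 (adjusted p = 8.47e-10) and by 0.34 (adjusted p = 4.29e-09) with YAP/TAZ siRNA. Both were higher in PD-only than in 2i controls, Bambi by 0.31 (adjusted p = 3.8e-07) and Ski by 0.44 (adjusted p = 1.66e-10). Skil, a relative of Ski, was higher than in 2i controls in PD-only controls (0.65, adjusted p = 7.17e-15) and in siYAP/TAZ cells (0.52, adjusted p = 4.17e-13). The shared partner Smad4 gave −0.17 between siYAP/TAZ and 2i (adjusted p = 0.00011), and −0.11 (adjusted p = 0.154) with siRNAs numbered 2 alone.

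Of 16 secreted antagonists and their regulators, 1 rose and 9 fell with YAP/TAZ siRNA in PD-only medium. In PD-only controls, 7 were higher and 3 lower than in 2i controls. Fst, which encodes the activin and BMP antagonist follistatin, had values of 6.26, 6.35 and 6.43 in siYAP/TAZ cells, against 8.30, 8.45 and 8.46 in PD-only controls and 8.65, 8.76 and 8.85 in 2i controls. It therefore stood apart from Bmp4, being lower in siYAP/TAZ cells than in both control arms, by −2.06 ± 0.036 (adjusted p = 1.25e-20) and −2.42 ± 0.036 (adjusted p = 4.37e-20). The related Fstl1 gave −0.72 between siYAP/TAZ and 2i (adjusted p = 6.13e-16). Bmp1, a protease that cleaves the antagonist chordin, fell by 1.18 ± 0.093 with YAP/TAZ siRNA (adjusted p = 6.08e-10) and was 1.27 ± 0.097 higher in PD-only than in 2i controls (adjusted p = 3.7e-10). The antagonist gene Nog, dim in every arm, had −0.85 (adjusted p = 5.63e-10) and 0.82 (adjusted p = 2.31e-09) in the same comparisons, and Fstl3 had −0.68 (adjusted p = 6.76e-06) and 0.70 (adjusted p = 8.73e-06). Twsg1, which encodes a secreted BMP modulator, was 0.62 higher in PD-only than in 2i controls (adjusted p = 2.68e-11).

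Of 9 other target genes, 3 rose and 5 fell with YAP/TAZ siRNA in PD-only medium. Relative to 2i controls, 4 were higher and 1 lower in PD-only controls, and 4 were higher in siYAP/TAZ cells. The homeobox gene Msx2 had values of 6.14, 6.28 and 6.30 in siYAP/TAZ cells, against 8.11, 8.30 and 8.48 in PD-only controls and 6.10, 6.22 and 6.48 in 2i controls. Msx2 thus fell by 2.05 ± 0.065 (adjusted p = 1.74e-16) with the siRNA, was 2.02 ± 0.067 higher in PD-only than in 2i controls (adjusted p = 4.9e-16), and overlapped between siYAP/TAZ and 2i as Bmp4 did. Dusp9, a phosphatase of ERK that BMP signals are known to induce in mouse ES cells, had values of 8.22, 8.29 and 8.43 in siYAP/TAZ cells, against 9.71, 9.73 and 9.76 in PD-only controls and 7.02, 7.30 and 7.50 in 2i controls. Its order was that of Id1 to Id3, with differences of −1.45 ± 0.053 (adjusted p = 1.86e-15), 2.40 ± 0.055 (adjusted p = 8.32e-19) and 0.96 ± 0.053 (adjusted p = 4.84e-12). Hey1, also a target of Notch, rose by 1.05 ± 0.059 with YAP/TAZ siRNA (adjusted p = 2.83e-12) and by 0.81 relative to 2i controls (adjusted p = 4.07e-10). Msx1 gave −0.60 (adjusted p = 5.76e-07), 0.96 (adjusted p = 1.04e-09) and 0.36 (adjusted p = 0.000418), but another of its probe sets, taken when those of less specific design were left out, gave −0.083, 0.12 and 0.033 and no call. Gata2 was higher than in 2i controls in PD-only controls, by 0.64 (adjusted p = 3.81e-07), and in siYAP/TAZ cells, by 0.31 (adjusted p = 0.00168).

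The 3 E proteins that Id proteins bind were measured as well. Tcf4 had values of 9.23, 9.29 and 9.36 in siYAP/TAZ cells, against 8.61, 8.68 and 8.74 in PD-only controls and 9.85, 9.96 and 10.1 in 2i controls, the reverse of the order of Id1 to Id3 and the same as that of Id4. Its differences were 0.62 ± 0.030 (adjusted p = 1.62e-13), −1.28 ± 0.031 (adjusted p = 1.99e-18) and −0.66 ± 0.030 (adjusted p = 2.13e-13). Tcf12 gave 0.30 (adjusted p = 3.01e-08), −0.87 (adjusted p = 2.15e-15) and −0.57 (adjusted p = 3.16e-12), of which the first became 0.054 (adjusted p = 0.163) over the mean of its probe sets. Tcf3, here the E2A gene, gave 0.14 (adjusted p = 0.000925), 0.12 (adjusted p = 0.00578) and 0.26 (adjusted p = 1.19e-06). The first was lost with siRNAs numbered 2 alone (0.10, adjusted p = 0.139), and the second was −0.002 (adjusted p = 0.963) with arrays centred.

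**Figure D4:**
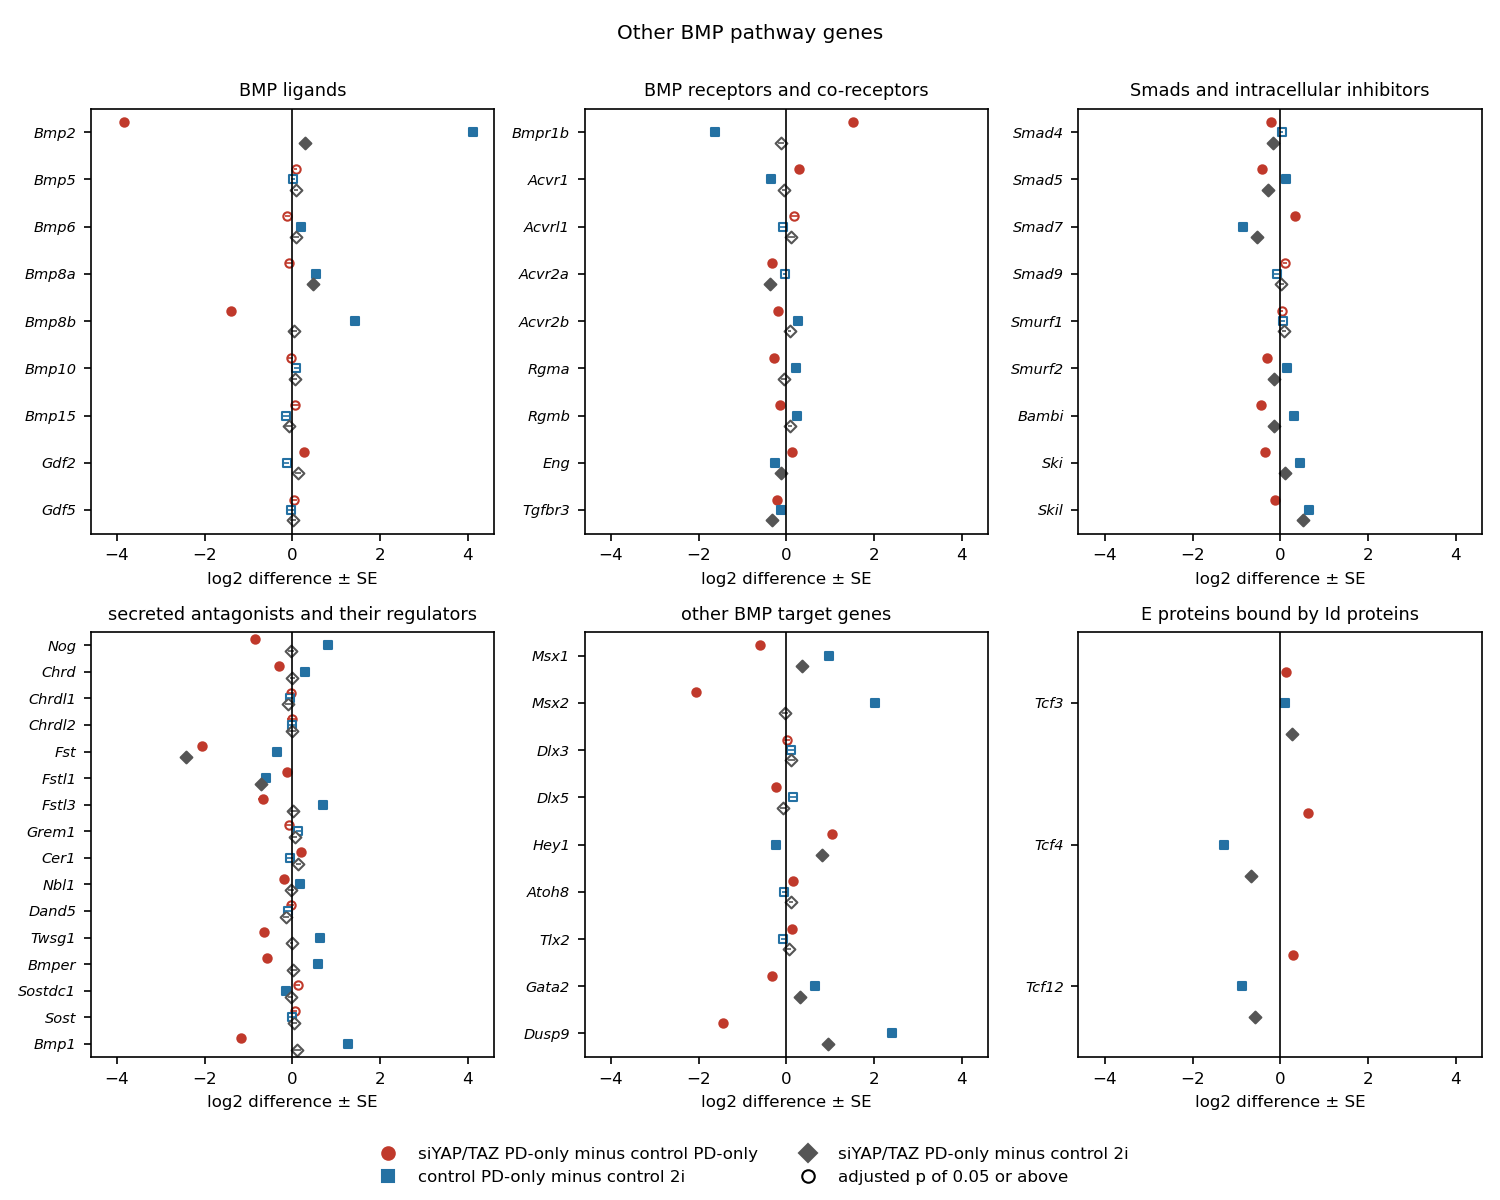
Log2 differences ± SE (x axes) of the 55 other pathway genes (y axes), 1 panel per list, for siYAP/TAZ PD-only minus control PD-only, control PD-only minus control 2i, and siYAP/TAZ PD-only minus control 2i. Open symbols did not pass an adjusted p of 0.05; Bmp2 has −3.84 and 4.12 in the first 2 comparisons, and Bmpr1b has 1.51 and −1.63.

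Markers of other cell types also differed between the arms, in part in mixed directions. Counts of markers are limma calls at an adjusted p of 0.05. Over all genes, 35.5% were called higher and 26.3% lower with YAP/TAZ siRNA in PD-only medium. In PD-only controls, 26.7% were called higher and 31.3% lower than in 2i controls. The summed linear level of 6 fibroblast markers was 222.5 to 246.8 in siYAP/TAZ cells, against 1692.2 to 1879.4 in PD-only controls and 174.4 to 213.6 in 2i controls, with 5 of 6 lower with YAP/TAZ siRNA and 6 of 6 higher in PD-only than in 2i controls. That of 6 trophoblast markers was 1127.8 to 1414.2 in siYAP/TAZ cells, against 1370.5 to 1662.6 in PD-only controls and 556.4 to 633.1 in 2i controls, and the members did not move together, since the mean of Krt7 was 4.70 in siYAP/TAZ cells, 9.02 in PD-only controls and 4.46 in 2i controls, whereas that of Cdx2 was 6.32 in siYAP/TAZ cells, 5.25 in PD-only controls and 5.80 in 2i controls. Sums of 8 mesoderm markers ran from 412.3 to 439.5 in siYAP/TAZ cells, 461.2 to 519.3 in PD-only controls and 314.7 to 377.2 in 2i controls. With YAP/TAZ siRNA, however, 3 of the 8 were called higher and 2 lower (median 0.053), and 2 were called higher in PD-only than in 2i controls. Eomes averaged 7.30 in siYAP/TAZ cells, 7.52 in PD-only controls and 6.42 in 2i controls, and Gsc 3.82 in siYAP/TAZ cells, 3.48 in PD-only controls and 3.27 in 2i controls. Sums of 6 primitive endoderm markers ran from 172.6 to 201.2 in siYAP/TAZ cells, 215.0 to 260.1 in PD-only controls and 156.7 to 184.3 in 2i controls. Of these 6, 2 were called lower with YAP/TAZ siRNA and 3 were called higher in PD-only than in 2i controls. The sum of the 4 ES cell markers was 31739.5 to 33352.6 in siYAP/TAZ cells, against 27646.5 to 28988.4 in PD-only controls and 36036.1 to 38891.5 in 2i controls. In bulk RNA, fewer cells of a type and less RNA per cell cannot be told apart. The RNA quality measure, the Actb 3′ minus 5′ control probe value, was 0.88 to 1.07 in siYAP/TAZ cells, against 0.66 to 0.75 in PD-only controls and 0.87 to 1.19 in 2i controls. With it as a covariate the differences of Id1, Id2, Id3 and Id4 kept their sign in all 3 comparisons. The measure in PD-only controls did not overlap that in either other arm, and its slope was fitted within groups. This fit therefore cannot separate RNA quality from the PD-only control arm. The part of the other cell types in the levels of the Id genes was not tested.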

How the data were processed

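Biotin-labelled RNA of 22 cultures was hybridised to Affymetrix mouse arrays, 1 per culture, per the labels' protocols. The deposited values are log2 expression per probe set, made by the authors with RMA per the submitters' processing notes; its version is not given in the sources used here. Of 45101 probe sets, the platform annotation gives 1 symbol for 34945, several for 932 and none for 9160, and 64 are controls. A gene took its single-symbol probe set with the highest mean. With limma 3.58.1 in R 4.3.3, each of 18193 genes was given its own mean in the 6 combinations of siRNA and medium, arms being equally weighted averages of their siRNA groups, with Benjamini-Hochberg adjustment and calls at 0.05. On simulated data with 200 of 18193 genes changed by 0.5 or 1, this fit recovered 98.5% to 100.0% of them. These simulations had independent noise and far fewer changed genes than were called here, so they do not check the calls in these data. Arm means are over arrays with their SD, and differences are the model's with its SE.

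The members and lists were chosen with earlier results of these data known. Named were the 10 members, Yap1 and Wwtr1, and per list and comparison the called genes with the largest difference, up to 4, with every called gene of at least 1 in size. For Id1, Id2 and Id3 the 3 genes with the most similar profile were named, members and predicted, clone-type or mitochondrial names being left out. Of 59 listed pathway genes 55 were measured. Replicate letters did not pair arrays: same-letter deviations correlated from −0.077 to 0.124 over 51 pairs. The labels give no scan or array batch, and an effect of one that ran along with the arms cannot be told apart from theirs. The labels do not say whether biological replicates came from separate days; p-values measure the spread between these cultures. The number of arrays limits the precision. Alternatives covered probe sets, dim genes, scaling, the prior, the arrays used, siRNAs, the block and an RNA quality covariate. Figures were drawn with matplotlib 3.10.9.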

Additional observations from a re-analysis of the deposited data

Results flagged for a closer look

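Replicate C of siYAP/TAZ#2 had the highest Bmpr2 value of the 8 arrays of the siYAP/TAZ PD-only arm, 8.77, with the nearest array at 8.66. That gap is 0.55 of the whole range of the arm and past the critical value of Dixon's test. It was the only such case among 30 sets of values tested, 10 genes in 3 arms, and chance gives about 1 in 20. Without this array the Bmpr2 differences were −0.90 between siYAP/TAZ and PD-only controls and −0.14 between siYAP/TAZ and 2i controls.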

How the results depend on the processing

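Counts of other pathway genes that changed were 39, 35 and 21 between siYAP/TAZ and PD-only controls, between PD-only and 2i controls and between siYAP/TAZ and 2i controls. Without dim genes, which leaves 24 genes of the lists to test, the first 2 were 23 and 20. Leaving out 1 array at a time gave 38 to 41, 34 to 35 and 21 to 23, and 0 calls in the contrasts between siRNAs of one kind throughout. A replicate block gave 40, 34 and 21 and 0 calls among siRNA contrasts; replicate letters share only a label here. Called values that changed sign were Bmpr1a between PD-only and 2i controls (−0.005 with arrays centred), Bmpr1a between siYAP/TAZ and 2i controls (0.118 over the mean of all probe sets), Rgma with YAP/TAZ siRNA (0.079, limma adjusted p = 0.583, RNA quality covariate) and Tcf3 between PD-only and 2i controls (−0.002, limma adjusted p = 0.963, arrays centred). Of 757 values of named pathway and targeted genes under alternatives other than leaving out an array, 21 lost their call, Rgma and Tcf3 above among them, and leaving out an array changed none of 1430. The 1430 include arrays of the arm outside a comparison. Leaving those out alters the shared estimate of the spread but not the difference, so such values could hardly change. Differences near 0 also changed sign: Bmp7 between siYAP/TAZ and PD-only controls (0.019) gave −0.100 with the RNA quality covariate and −0.035 with siRNAs numbered 1 alone. Smad1 between PD-only and 2i controls (0.013) gave −0.107 with arrays centred, −0.090 over the mean of its probe sets, −0.053 with siRNAs numbered 2 alone, −0.012 after a further quantile normalization and −0.002 without siControl#2 2i replicate C. Bmp4 between siYAP/TAZ and 2i controls (−0.024) gave 0.004 without siControl#2 2i replicate B. The mean of all probe sets moved Bmpr1a between siYAP/TAZ and PD-only controls to −0.021, and Bmpr2 to −0.34 in that comparison and to 0.28 between PD-only and 2i controls. For Bmpr1a and Bmpr2 the probe sets themselves differ, as given above; the causes of the other changes were not tested. Over all alternatives run, the differences of Id1, Id2, Id3, Id4 and Smad6 kept their sign, with Id1 at −1.93 to −1.72, 4.74 to 4.95 and 2.94 to 3.06. Id1, Id3 and Smad6 each have 1 probe set with their symbol alone, so the alternatives on probe sets could not change their differences. RMA gives no detection call, so folds of genes dim in 1 arm or more may be understated by an unknown amount. Examples are Bmp2 in siYAP/TAZ cells and 2i controls, and Id1, Id2 and Id3 in 2i controls.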

Other observations

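The genes with profiles closest to those of Id1, Id2 and Id3 over the 6 group means were picked by the root mean square difference of centred log2 values. The 10 genes themselves were left out before ranking, so an Id gene could not be listed as nearest to another. Genes with predicted, clone-type or mitochondrial names were left out too. Among the genes that remained, the nearest to Id1 were Greb1l (0.43), Hesx1 (0.51), a homeobox gene of the anterior epiblast, and Dsp (0.70), which encodes the desmosome protein desmoplakin. The nearest to Id2 were Greb1l (0.18), Dsp (0.38) and Coch (0.42), and the nearest to Id3 were Dsp (0.098), Coch (0.19) and the imprinted gene Peg3 (0.19). Dsp averaged 8.56 in siYAP/TAZ cells, 10.61 in PD-only controls and 7.11 in 2i controls. Greb1l averaged 8.81 in siYAP/TAZ cells, 10.61 in PD-only controls and 6.67 in 2i controls, and Peg3 averaged 10.84 in siYAP/TAZ cells, 13.34 in PD-only controls and 10.07 in 2i controls. These genes were picked for likeness, which describes these arrays only.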
